A study of Mus musculus with 14 samples.

Results

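The 3 E-protein genes Tcf3, Tcf4 and Tcf12 and the 3 Id genes Id1, Id2 and Id3 were followed through 9 lists of ChIP-seq peaks from mouse B-lineage cells. A peak was taken as a member when it overlapped the gene interval of the RefSeq table for GRCm38 extended by 50 kb on both sides. In all, 375 of the 196179 peaks of the lists did so, 237 at E-protein genes and 138 at Id genes. The lists show where Brg1, the ATPase that drives BAF complexes to move nucleosomes, or EBF1, a transcription factor that early B cells require, was enriched on chromatin. Each list came from 1 library, so no spread between replicates exists and nothing was tested across conditions. The exact Clopper-Pearson 95% intervals given in parentheses after shares account for counting error alone.

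E proteins are basic helix-loop-helix transcription factors that bind E-boxes (CANNTG) as dimers. Tcf3 encodes E2A (E12 and E47), Tcf4 encodes E2-2 and Tcf12 encodes HEB. Id proteins have the helix-loop-helix but lack the basic region that contacts DNA, so that a dimer with an Id protein keeps an E protein off its sites. In the lymphoid lineage, E2A is required for early B-cell development and acts upstream of and together with EBF1, while Id2 is best known from innate lymphoid and NK cells and Id3 from developing and antigen-stimulated lymphocytes.

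Brg1 was profiled in 5 groups of fetal liver cells, all of strain C57BL/6. These were c-kit+ lymphocyte progenitors of EBF1 -/- embryos of day 16 to 18, which received a retroviral pMys vector with IRES and GFP and stayed 14 to 20 days on OP9 stromal cells with IL7, SCF and Flt3. The vector was empty or carried EBF1 wt, dC, dPLD (a deletion of residues 480 to 520) or F-GATA3. By their labels, empty-vector cells were blocked before the pro-B stage, dC and dPLD cells partly so, and only wt and F-GATA3 cells had reached it. EBF1 version and stage therefore cannot be told apart in these lists. The other kind of cell was A-MuLV transformed pro-B cells from EBF1 fl/fl fetal liver, which carried the wt or the dC vector, and in which both Brg1 and EBF1 were profiled with 1 library each. Fetal liver chromatin was crosslinked with 2% formaldehyde and EGS, A-MuLV chromatin for Brg1 with 1% and EGS, and for EBF1 with 1% alone. The fetal liver cells thus lacked endogenous EBF1, and in the A-MuLV cells, per the labels' protocol, the vector's EBF1 took the place of the endogenous one.

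The lists ran from 6155 peaks (EBF1 wt) to 30301 (fetal liver Brg1, dC), and the empty-vector list, with 17687 peaks, was the shortest Brg1 list. The number of reads behind a list is unknown, and the absence of a peak does not establish the absence of the protein. Of 5 B-lineage marker genes, 3 had a Brg1 peak within 10 kb with the empty vector (7 peaks in all), where Cd79b and Pax5 had none. All 5 had one in every other list, with 28 peaks for wt, 19 for dC, 20 for dPLD and 18 for F-GATA3 in fetal liver. Myeloid markers went the other way, with 10 peaks at 3 of 3 genes with the empty vector and between 1 and 5 peaks in the other 4 fetal liver lists. T-lineage markers did not differ, with 1 peak at 1 of 3 genes in every fetal liver list and none at Bcl11b or Gata3. Erythroid markers had 2 peaks with the empty vector and 5, 5, 7 and 4 with wt, dC, dPLD and F-GATA3, at 2 of 3 genes each time and not at Gata1. Markers of OP9-type stroma had 4 peaks with the empty vector, all at Pdgfrb, and 1, 1, 1 and 0 with the EBF1 versions, where Pdgfrb had none. The part of these differences in the results at the E-protein and Id genes was not tested.

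The promoters of these genes carried Brg1 in different patterns, and 4 are shown here because the results return to them. Of the 6 genes, 4 matched a RefSeq promoter entry, with 6 windows of 300 bases (250 before to 50 after the start, GRCm38.p6). Capitals mark matches to CCCNNGGG, the core of the EBF1 recognition sequence, and to the E-box CANNTG. Below stand Id2 (chr12:25096043-25096342, minus strand), Id3 (chr4:136143572-136143871, plus strand), Tcf3 (chr10:80433586-80433885, minus strand) and the internal start of Tcf12 (chr9:71896047-71896346, minus strand).
Id2: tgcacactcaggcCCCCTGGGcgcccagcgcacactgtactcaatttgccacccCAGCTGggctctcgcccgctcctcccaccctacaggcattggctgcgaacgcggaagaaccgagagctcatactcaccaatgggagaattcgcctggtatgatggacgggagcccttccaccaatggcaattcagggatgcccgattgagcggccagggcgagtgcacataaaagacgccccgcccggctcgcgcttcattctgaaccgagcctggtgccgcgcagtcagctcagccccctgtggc
Id3: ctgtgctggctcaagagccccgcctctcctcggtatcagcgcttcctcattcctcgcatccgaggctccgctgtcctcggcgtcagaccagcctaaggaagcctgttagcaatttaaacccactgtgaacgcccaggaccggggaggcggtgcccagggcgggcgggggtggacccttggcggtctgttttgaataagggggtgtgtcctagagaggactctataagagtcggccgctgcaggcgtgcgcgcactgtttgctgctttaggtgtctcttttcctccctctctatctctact
Tcf3: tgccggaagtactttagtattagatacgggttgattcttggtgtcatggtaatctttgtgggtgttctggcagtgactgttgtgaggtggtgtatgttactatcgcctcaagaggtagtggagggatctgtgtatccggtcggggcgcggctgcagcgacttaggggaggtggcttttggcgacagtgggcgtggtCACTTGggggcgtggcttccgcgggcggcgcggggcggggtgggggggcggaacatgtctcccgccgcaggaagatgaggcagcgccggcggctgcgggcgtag
Tcf12: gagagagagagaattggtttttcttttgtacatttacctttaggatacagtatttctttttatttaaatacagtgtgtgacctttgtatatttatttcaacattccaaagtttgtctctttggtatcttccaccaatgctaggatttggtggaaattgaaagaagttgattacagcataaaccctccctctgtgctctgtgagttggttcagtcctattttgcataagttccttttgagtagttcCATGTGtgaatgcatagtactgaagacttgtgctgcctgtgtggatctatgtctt

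The Id2 window held a CCCNNGGG match that begins 237 bases before the start and a CAGCTG that begins 196 bases before it. Both strands were searched for these motifs and for the E-box CAGGTG, which like the CAGCTG box is a case of CANNTG. Among all 32851 promoters of the table, 13.7% held CCCNNGGG and 72.3% held CANNTG. The CAGCTG box was in 16.3% of them, and 20.2% had a CAGGTG box. No window of the 6 held CAGGTG, and the Id3 window held no match to any of the 4 motifs. A match describes letters and shows no binding.

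Brg1 peaks overlapped 4 of the 6 promoter windows with the empty vector, where 17.4% of all promoters in the table had one, and all 6 with wt, where 34.4% had. The Id3 and Tcf3 windows and both upstream starts of Tcf12 were covered in all 5 fetal liver lists. At Id3 the fold enrichment was 5.57 with the empty vector, 13.3 with wt, 10.6 with dC, 8.88 with dPLD and 8.78 with F-GATA3. Fold enrichment is the authors' value for a peak, and it ranks peaks within 1 list only. At Tcf3 it was 5.34, 7.93, 9.83, 9.44 and 8.61 in the same order. The Id2 window had no peak with the empty vector and had one with each EBF1 version (7.74, 8.19, 5.77 and 7.72). The internal start of Tcf12 had one with wt (6.3), dPLD (5.64) and F-GATA3 (5.16), and none with the empty vector or dC. No EBF1 peak overlapped any of the 6 windows, where 1.95% of all promoters had one with wt and 4.93% with dC.

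All 6 genes had more Brg1 peaks in fetal liver cells with EBF1 wt than with the empty vector, which was true of 56.5% of the 21887 protein-coding genes. Tcf3 went from 3 peaks to 14, Tcf4 from 2 to 13 and Tcf12 from 8 to 11. Id1 went from 3 to 5, Id2 from 2 to 5 and Id3 from 6 to 11. Summed, the E-protein genes had 13 peaks with the empty vector and 38 with wt, and the Id genes had 11 and 21. The widest differences in count were at Tcf3 and Tcf4, and Tcf12 had the most empty-vector peaks of the 6. Part of this depended on the length of the lists. With the fetal liver lists held to equal length, the counts with the empty vector and wt were 3 and 7 at Tcf3, 2 and 7 at Tcf4 and 6 and 7 at Id3. They were equal at Tcf12 (8 and 8) and Id2 (2 and 2) and reversed at Id1 (3 and 1), so that the E-protein genes had 13 and 22 peaks and the Id genes 11 and 10. Within 10 kb, Id1 also had fewer peaks with wt (1) than with the empty vector (2).

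**Figure D1:**
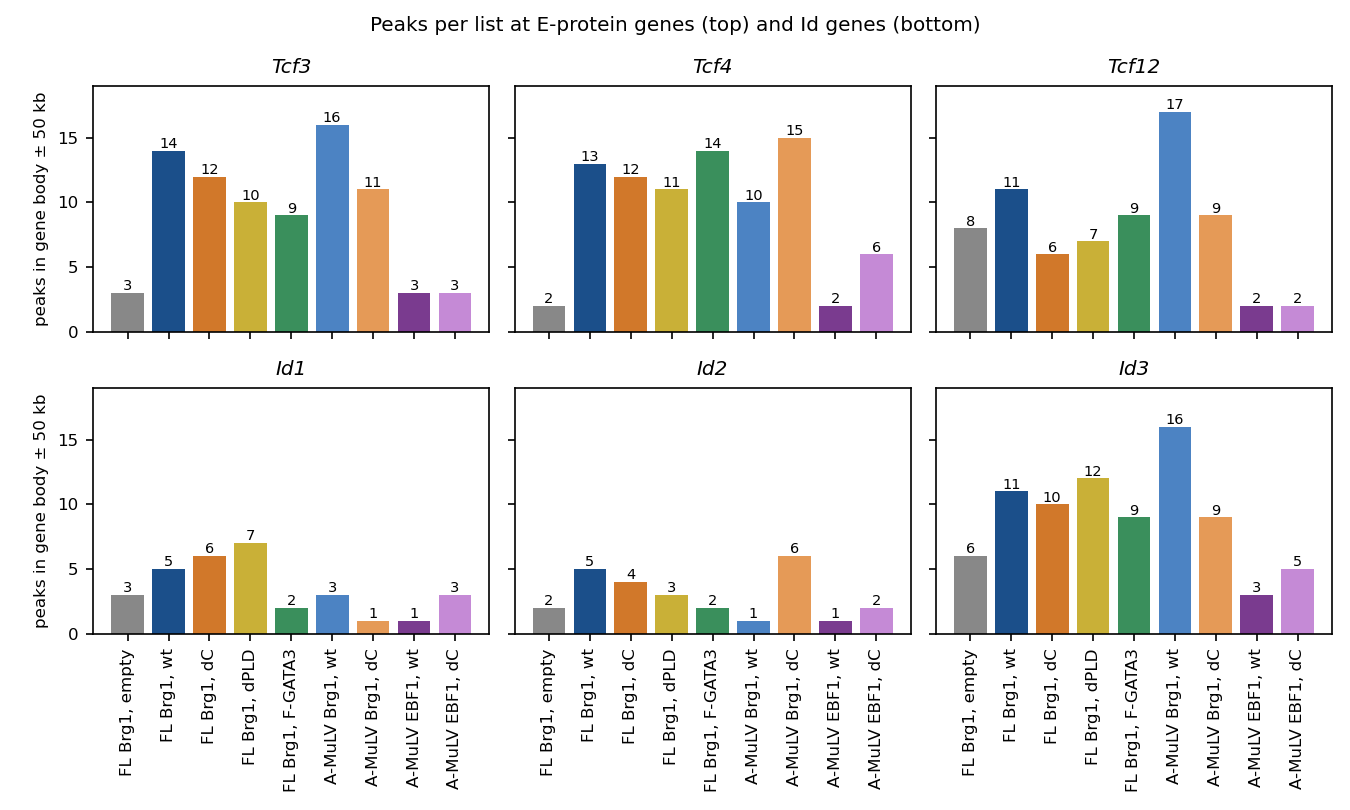
Number of peaks (y axis) overlapping each gene body extended by 50 kb in each of the 9 lists (x axis; FL, fetal liver), 1 bar per library, with the count above it. In the full lists every gene has more fetal liver Brg1 peaks with wt than with the empty vector (with lists of equal length, 3 of the 6 do), and only Tcf4 and Id2 have more A-MuLV Brg1 peaks with dC than with wt.

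The windows differ in length, from 101 kb at Id1 to 445 kb at Tcf4, so the counts are also given per 100 kb. With wt, the E-protein windows held 4.06 peaks per 100 kb and the Id windows 6.88, against 1.58 for all gene windows together. With the empty vector these were 1.39, 3.61 and 0.949. The value for all windows merges those that overlap and counts each peak once, so it is not the density of a typical gene window. Id3 and Tcf3 were the densest. For wt, 1.21% of all protein-coding genes were at least as dense as Tcf3 and 1.54% at least as dense as Id3, while 36.1% were at least as dense as Tcf4 and 35.0% as Tcf12. Id3 stood high even without EBF1, with 3.11% of genes at least as dense in the empty-vector list. Other genes share some of these windows: 7 of the 21 wt peaks at Id genes and 3 of the 38 at E-protein genes overlapped another protein-coding gene. These genes were H13 and Bcl2l1 by Id1, Kidins220 by Id2, E2f2 by Id3, and Mex3d, Mbd3 and Uqcr11 by Tcf3.

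Most wt peaks at these genes had no counterpart with the empty vector. Of the E-protein peaks, 28 of 38 overlapped no empty-vector peak (73.7%, 56.9 to 86.6%), and of the Id peaks 14 of 21 (66.7%, 43.0 to 85.4%), beside 63.9% of all wt peaks. Both shares lie within counting error of the share of the whole list. Such gained peaks made up 11 of 14 at Tcf3, 11 of 13 at Tcf4, 6 of 11 at Tcf12, 4 of 5 at Id1, 4 of 5 at Id2 and 6 of 11 at Id3. All 6 genes had at least 1 gained peak, as did 67.5% of protein-coding genes, and all 6 had one that every altered version kept, as did 57.2%. Gained peaks that met an A-MuLV EBF1 peak numbered 8 of 28 at E-protein genes (28.6%, 13.2 to 48.7%) and 3 of 14 at Id genes (21.4%, 4.66 to 50.8%), beside 22.9%. In the other direction, 4 of 13 empty-vector peaks at E-protein genes and 4 of 11 at Id genes had no wt counterpart, beside 38.7% of the list. At Tcf12, 3 sites were called with the empty vector alone among the 5 fetal liver lists, 1 of them 18.0 kb beyond the higher-coordinate end of the gene (fold 6.59).

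At Tcf3, the gained peak with the highest fold lay inside the gene at chr10:80428901-80431149. Its fold was 16.8 with wt (rank 1089 of the list), 10.8 with dC, 13.4 with dPLD and 15.2 with F-GATA3, and no empty-vector peak was called. Upstream of Tcf3, chr10:80442387-80445238 had folds of 15.6, 7.42, 11.1 and 8.36 in the same order and again no empty-vector peak. A weaker gained site inside the gene, chr10:80423369-80424238, was called with wt (7.28) and F-GATA3 (6.3) but not in the dC or dPLD list. All 3 sites held an EBF1 peak in A-MuLV cells.

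Tcf4 had 16 merged fetal liver sites, of which 1 was called with wt alone and none with the empty vector alone. The site with the highest fold, chr18:69414112-69417127 inside the gene, had 17.6 with wt, 20.2 with dC, 19.6 with dPLD and 12.5 with F-GATA3. A further site, chr18:69498076-69500133, had 13.9, 10.7, 11.5 and 13.5. Neither was called with the empty vector, and 7 of the 16 sites had this pattern of all 4 EBF1 versions without the empty vector. Both empty-vector peaks of Tcf4 lay at sites called in all 5 lists, with folds of 6.06 and 5.61.

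At Tcf12, the highest wt fold lay outside the gene at chr9:72131933-72134326, 20.0 kb from its higher-coordinate end. This site was called in all 9 lists, with a fetal liver fold of 6.84 for the empty vector, 13.8 for wt, 12.7 for dC, 13.3 for dPLD and 12.5 for F-GATA3. Inside the gene, chr9:71993447-71995099 was called with wt (7.28) and F-GATA3 (9.67) alone. Of the 16 fetal liver sites at Tcf12, 1 was called with all 4 EBF1 versions and not the empty vector, against 4 of 13 at Tcf3.

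**Figure D2:**
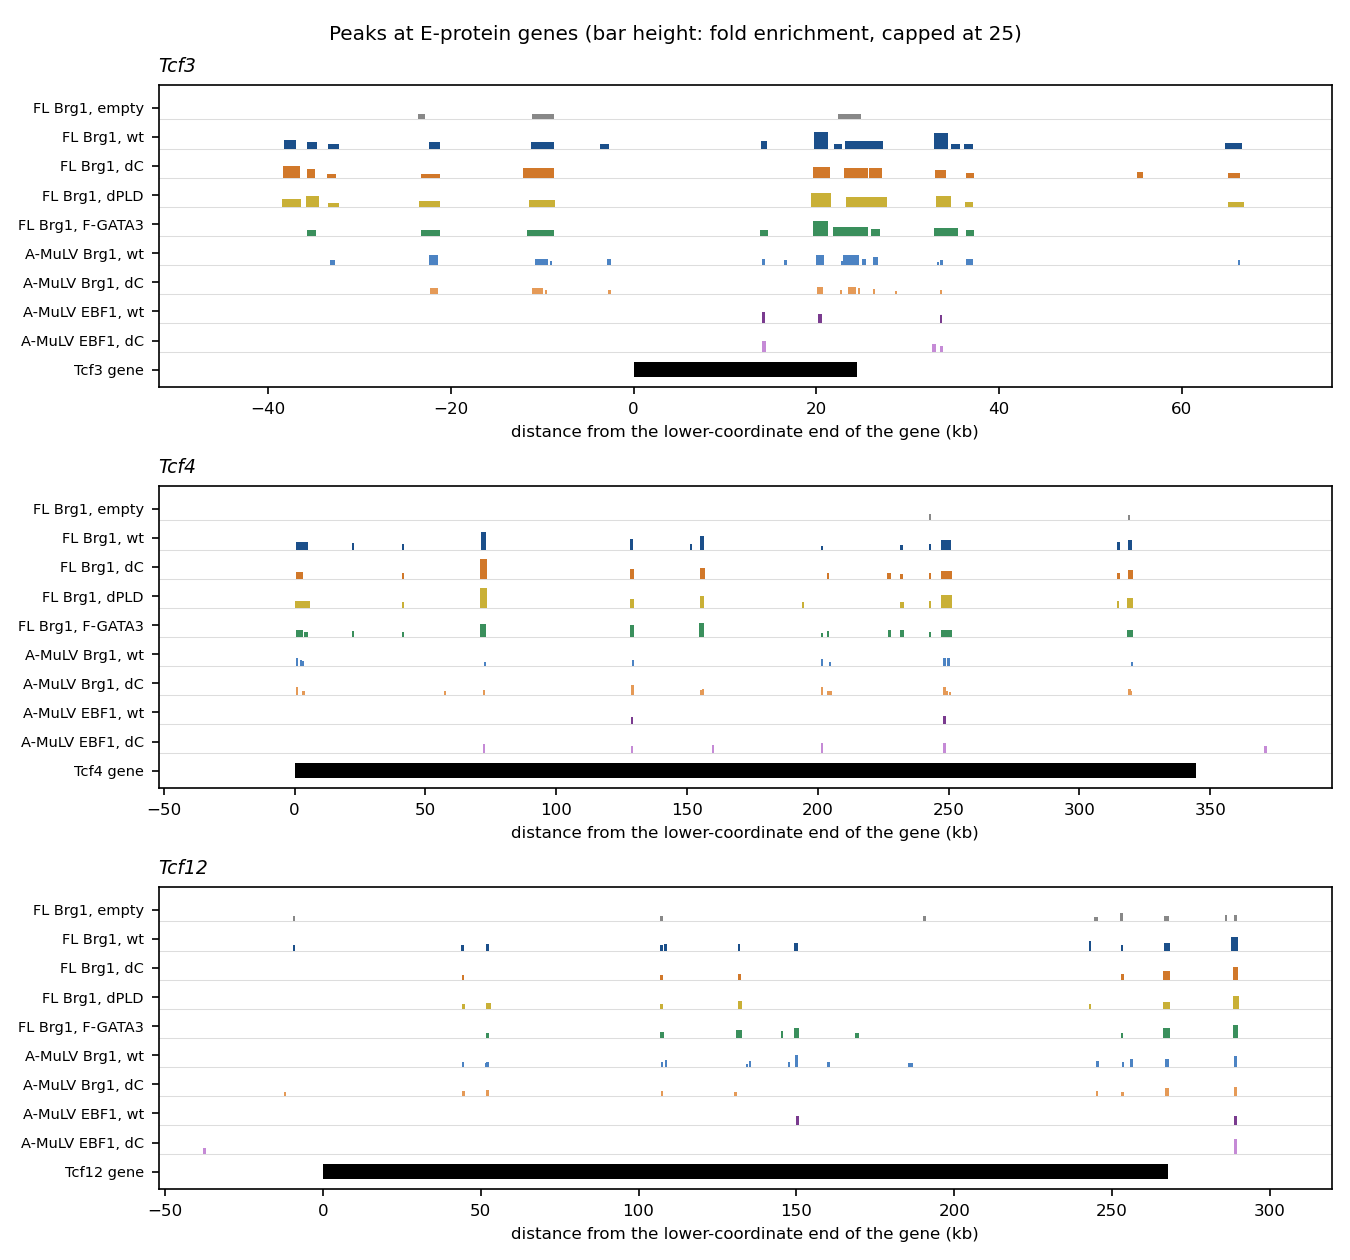
Peaks at Tcf3, Tcf4 and Tcf12 in the 9 lists (1 lane each), against distance in kb from the lower-coordinate end of the gene (x axis). Bar width is the peak (the narrowest are drawn slightly wider to be seen) and bar height its fold enrichment, capped at 25, and the black bar is the gene. The highest wt bars at Tcf3 (16.8) and Tcf4 (17.6) have no empty-vector peak above them, whereas that at Tcf12 (13.8) has one.

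Among the Id genes, Id1 differed in that its own body had no Brg1 peak with wt. The site over the gene, chr2:152735921-152738236, was called with dC (4.41), dPLD (5.0) and F-GATA3 (4.34), and with neither wt nor the empty vector. Next to it, chr2:152740987-152743245 was called with the empty vector (7.54), wt (4.86), dC (11.0) and dPLD (8.02), and not with F-GATA3. The highest wt fold in the Id1 window belonged to a site inside Bcl2l1, which encodes an inhibitor of apoptosis, at chr2:152774801-152776524 (11.2 with wt, 17.2 with dC, 13.8 with dPLD, 9.09 with F-GATA3).

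The Id2 site over the gene and its start, chr12:25094443-25097484, was a gained site in all 4 EBF1 versions, with the folds given above for its promoter window. The other Id2 site with calls in all 4 versions lay in Kidins220 and was also called with the empty vector (5.31). Id2 had no peak with F-GATA3 beyond these 2, against 5 peaks with wt.

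Id3 had Brg1 at its body in all 5 lists. Just beyond the gene, chr4:136146463-136150396 was also called in all 5, with a fold of 7.15 for the empty vector, 15.8 for wt, 14.9 for dC, 12.6 for dPLD and 13.9 for F-GATA3. The gained site at chr4:136127208-136128907, 14.9 kb below the gene, had no empty-vector peak and folds of 9.46, 7.34, 7.48 and 12.4. Within E2f2, which encodes a cell cycle transcription factor, chr4:136175875-136179237 had 6.58 (empty vector), 16.8, 13.0, 7.35 and 7.98.

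**Figure D3:**
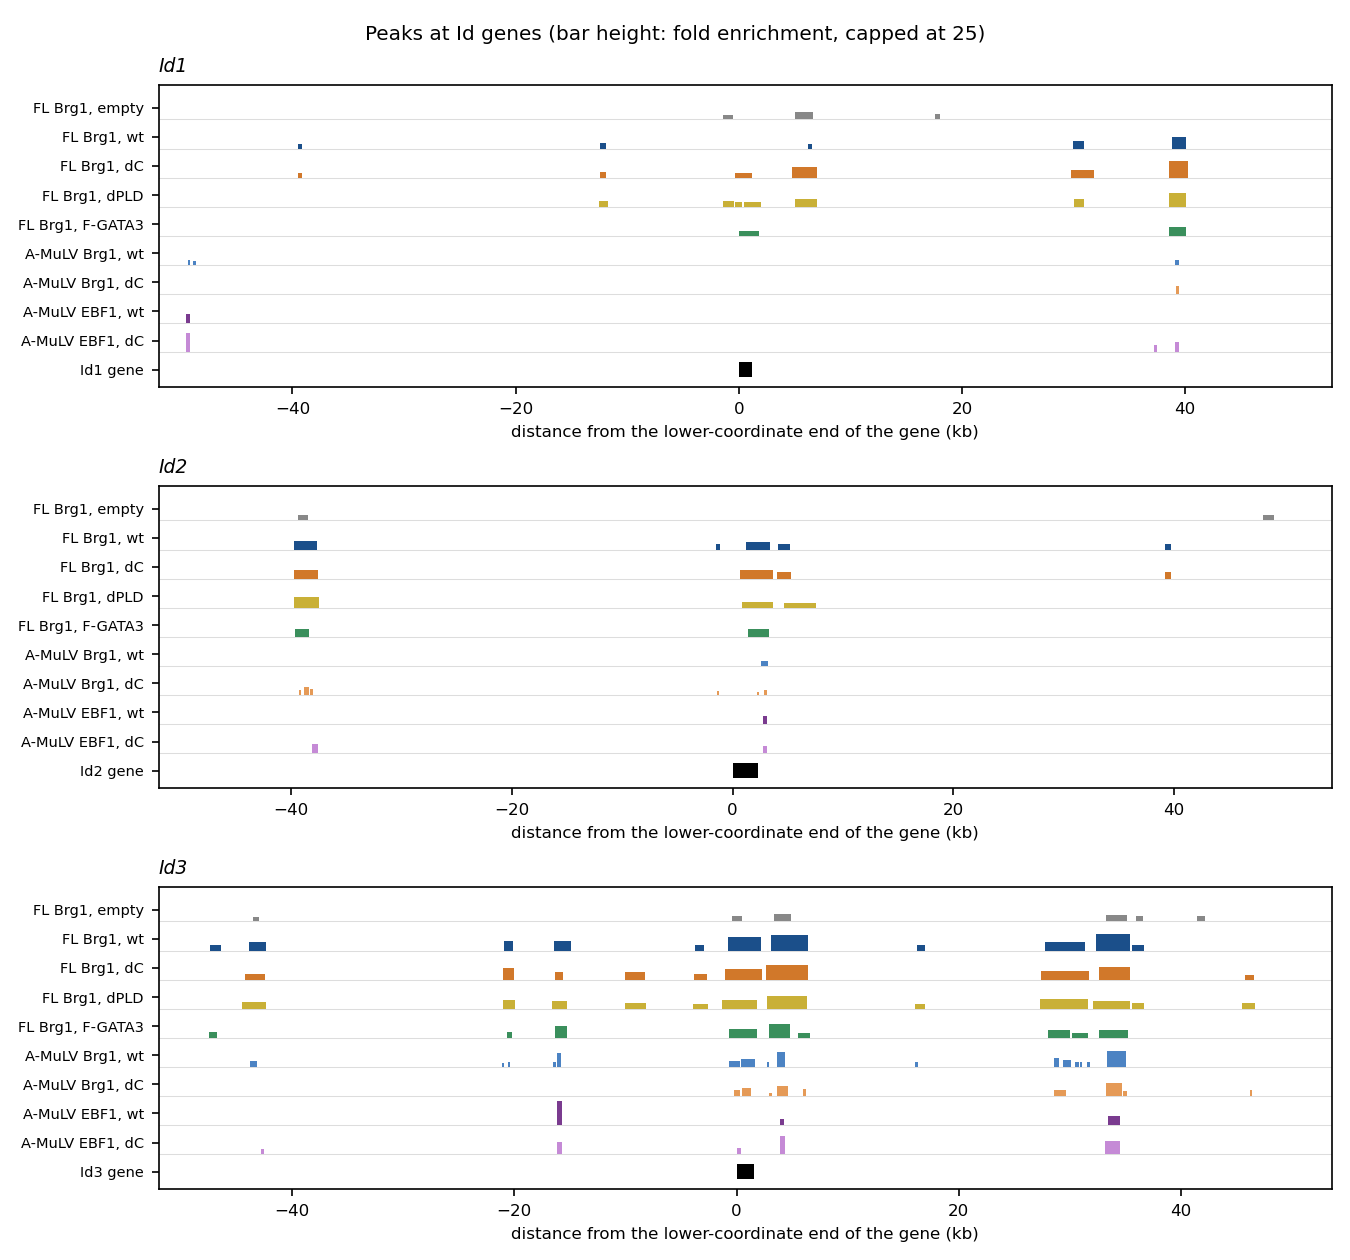
Peaks at Id1, Id2 and Id3 in the 9 lists (1 lane each), against distance in kb from the lower-coordinate end of the gene (x axis), drawn with the same bar width and height rules as for the E-protein genes. The Id1 gene has no wt or empty-vector Brg1 peak over it, Id2 has none with the empty vector, and Id3 has one in all 5 fetal liver lists.

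The altered versions of EBF1 kept most gained peaks at the E-protein genes. Of the 28, dC kept 18 (64.3%, 44.1 to 81.4%), dPLD 20 (71.4%, 51.3 to 86.8%) and F-GATA3 19 (67.9%, 47.6 to 84.1%). The same shares of all gained peaks were 76.3%, 77.2% and 70.0%. Of the 14 gained peaks at Id genes, dC kept 11 (78.6%, 49.2 to 95.3%), dPLD 10 (71.4%, 41.9 to 91.6%) and F-GATA3 6 (42.9%, 17.7 to 71.1%). The order of the versions differed between the gene groups, in that F-GATA3 kept the smallest share at Id genes and dC the smallest at E-protein genes, and every interval overlapped the others. The F-GATA3 share at Id genes moved with the setting, being 77.8% (7 of 9) at a −log10 q of at least 20 and 80.0% (4 of 5) with lists of equal length. Gained peaks were defined anew under each setting. At the q minimum, 1 empty-vector peak was left at Id genes, against 11 in the full list. Peaks shared with the empty vector in the full lists can therefore count as gained there.

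The genes behind these shares were few. F-GATA3 kept 1 of 4 gained peaks at Id1, 1 of 4 at Id2 and 4 of 6 at Id3. It kept 7 of 11 at Tcf3, 9 of 11 at Tcf4 and 3 of 6 at Tcf12. The dC version kept 2 of 6 at Tcf12, its lowest count, and 4 of 4 at Id1. Gained peaks kept by dC and not by F-GATA3 were 6 of 14 at Id genes (42.9%, 17.7 to 71.1%). At E-protein genes they were 5 of 28 (17.9%, 6.06 to 36.9%), beside 16.6% of all gained peaks. Those in the Id1 window included sites within H13 and Bcl2l1. The reverse, kept by F-GATA3 and not by dC, held for 1 of 14 at Id genes (7.14%, 0.181 to 33.9%). At E-protein genes it held for 6 of 28 (21.4%, 8.3 to 41.0%), beside 10.3% of all gained peaks. All 3 altered versions kept 13 of 28 and 5 of 14, beside 57.3%, and none of them kept 3 of 28 and 1 of 14, beside 10.3%.

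**Figure D4:**
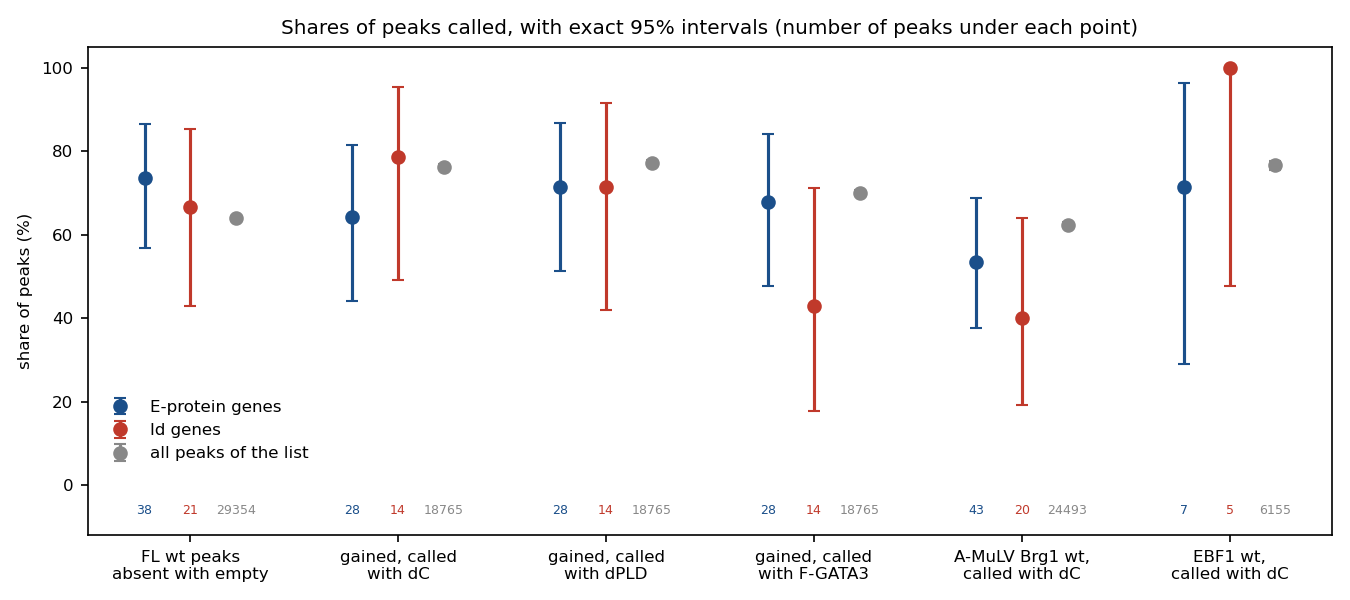
Share of peaks in percent (y axis) at E-protein genes, at Id genes and among all peaks of the list, for 6 comparisons (x axis). Bars are exact 95% intervals for counting error and the number of peaks stands under each point. At Id genes F-GATA3 kept 42.9% of the gained peaks, and the intervals of the gene groups overlap in all 6 comparisons.

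A gained peak that F-GATA3 kept and that neither dC nor dPLD kept was found at 4 of the 6 genes, Tcf3, Tcf4, Tcf12 and Id3, and at 7.48% of all protein-coding genes. Long windows hold more peaks, and this share was not matched on length. The 5 sites called with wt and F-GATA3 alone include those described at Tcf3 and Tcf12. At Tcf4 they were chr18:69365224-69365881 (6.55 with wt, 6.14 with F-GATA3) and chr18:69544620-69545401 (3.92 and 4.04). At Id3 it was chr4:136096395-136097438, 46.4 kb below the gene (5.83 and 6.14). The wt folds of the 5 ran from 3.92 to 7.28, below those of the strongest gained sites. At the weaker Tcf4 site the −log10 q was 10.64 with wt and 11.16 with F-GATA3, where the wt list starts at 10.02. At the Tcf12 site it was 22.20 and 41.54, and the Tcf3 site and the other Tcf4 site lay between in both lists. A part of the calling threshold in the missing dC and dPLD calls was not tested. An EBF1 peak of A-MuLV cells lay at 3 of the 5, those of Tcf3 and Tcf12 and the weaker one of Tcf4. It was called with both forms at Tcf3 (11.2 with wt, 11.0 with dC), with wt alone at Tcf12 (8.81) and with dC alone at Tcf4 (9.88). A-MuLV Brg1 was called with wt and not dC at the Tcf3 and Tcf12 sites. At the Tcf4 site it was called with both (6.8 with wt, 7.98 with dC).

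Fetal liver dC cells had fewer peaks than wt cells at 5 of the 6 genes, all but Id1, which was true of 20.0% of protein-coding genes. The counts were 12 against 14 at Tcf3, 12 against 13 at Tcf4, 6 against 11 at Tcf12, 6 against 5 at Id1, 4 against 5 at Id2 and 10 against 11 at Id3. Apart from Tcf12 and Tcf3, these are differences of 1 peak. With lists of equal length, dC had fewer only at Tcf4 (6 against 7) and Tcf12 (2 against 8), and Tcf3, Id2 and Id3 were equal. At a −log10 q of at least 20, Id3 was equal and Id2 had 3 with dC against 2 with wt.

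In A-MuLV pro-B cells, the E-protein genes held 43 Brg1 peaks with wt and 35 with dC, and the Id genes held 20 and 16. Within 10 kb the Id direction turned, with 5 peaks for wt and 8 for dC (4 and 5 at Id3, 0 and 0 at Id1), while the E-protein genes had 38 and 32. The genes did not go the same way. Brg1 peaks numbered 16 with wt and 11 with dC at Tcf3, 17 and 9 at Tcf12, 3 and 1 at Id1, and 16 and 9 at Id3. At Tcf4 they numbered 10 and 15, and at Id2 1 and 6. More peaks with wt were found at 25.4% of all protein-coding genes and more with dC at 26.8%.

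At E-protein genes, 23 of 43 A-MuLV wt peaks were also called with dC (53.5%, 37.7 to 68.8%). The corresponding count at Id genes was 8 of 20 (40.0%, 19.1 to 63.9%), beside 62.4% of all wt peaks. Of the dC peaks, 25 of 35 at E-protein genes (71.4%) and 8 of 16 at Id genes (50.0%) were called with wt, beside 65.6%. A wt peak without a dC counterpart was present at all members but Id2, and at 43.4% of all genes. A dC peak without a wt counterpart was present at all but Id1, and at 42.6%. The lists of the 2 kinds of cell reach different depths of significance, since the lowest −log10 q is 10.02 in the fetal liver wt list and 1.37 in the A-MuLV Brg1 wt list. Median peak widths also differ, with 381 bp (wt) and 348 bp (dC) in A-MuLV cells against 1103 and 1248 bp in fetal liver. Several A-MuLV peaks can therefore lie in 1 fetal liver peak, and counts do not compare directly between the kinds of cell. Most A-MuLV wt peaks were in the fetal liver wt list too, 33 of 43 at E-protein genes and 16 of 20 at Id genes, beside 81.8%. In the other direction, 25 of 38 fetal liver wt peaks at E-protein genes and 10 of 21 at Id genes were in the A-MuLV wt list, beside 49.7%.

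The highest A-MuLV Brg1 fold within Tcf12 showed the difference by site. The peak at chr9:71993733-71994703 had a fold of 12.5 with wt (rank 708) and no dC peak. This is the site that fetal liver cells had with wt and F-GATA3 alone. At Id3, chr4:136127646-136128057 had 14.4 with wt and no dC peak, although the fetal liver dC list had a peak there (7.34). At Tcf3, the body site shared by all 4 EBF1 versions had 9.64 with wt and 6.98 with dC, and chr10:80423590-80423892 had 5.77 with wt and none with dC.

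The Id2 peaks with dC lay in Kidins220 (3 peaks, folds 5.32 to 7.64) and around the gene itself (3 peaks, 3.22 to 5.47). The single wt peak there, chr12:25096405-25097040, lay 0.313 kb from the gene and had a fold of 4.83 beside 5.47 for dC. At Tcf4, chr18:69498076-69500133 held 2 dC peaks (4.65 and 5.6) and no wt peak, and chr18:69472144-69472776 had 6.05 with wt and 9.97 with dC. These A-MuLV peaks were weak by significance: at a −log10 q of at least 20, the E-protein genes kept 3 wt and 0 dC peaks and the Id genes 3 and 2.

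All 6 genes had an EBF1 peak with wt, against 37.3% of protein-coding genes, and with dC, against 53.6%. Not all 6 kept them under other settings. Within 10 kb, Id1 had none with either form and Tcf12 none with dC. With a minimum −log10 q of 20, Tcf4 and Id2 had none with wt. The wt list had 3 peaks at Tcf3, 2 at Tcf4, 2 at Tcf12, 1 at Id1, 1 at Id2 and 3 at Id3. The dC list, which is the longer, had 3, 6, 2, 3, 2 and 5 in that order. Part of this depended on the length of the lists. With the EBF1 lists held to equal length, the E-protein genes had 7 peaks with wt and 6 with dC. The Id genes then had 5 and 7, and Tcf4 had 2 and 3. Of the wt peaks at E-protein genes 5 of 7 were called with dC (71.4%, 29.0 to 96.3%), and at Id genes 5 of 5 (100%, 47.8 to 100%), beside 76.7% of the list. Of the dC peaks, 5 of 11 and 5 of 10 were called with wt, beside 42.1%. With lists of equal length, dC kept 3 of 7 at E-protein genes (42.9%, 9.9 to 81.6%) and 5 of 5 at Id genes. Merged over the full lists, there were 23 EBF1 sites, 10 with both forms, 2 with wt alone and 11 with dC alone.

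The 2 sites with wt alone were at Tcf3 and Tcf12, and 11.1% of protein-coding genes had such a site. At Tcf3 it was the body site chr10:80429665-80430170 (EBF1 fold 9.61), where Brg1 was called with wt and with dC in both kinds of cell. At Tcf12 it was chr9:71994243-71994537 (8.81), where Brg1 was called with wt and not with dC in both kinds of cell. In the full lists, of which the dC list is the longer, an EBF1 peak with dC alone was found at all 6 genes and at 42.4% of all genes.

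The strongest EBF1 peak with wt was at Id3. Its summit lay 15927 bp upstream of the Id3 start, with a fold of 24.8 (rank 271 of 6155) and 12.0 with dC. Nearer the gene, the site with a summit 4116 bp downstream of the start had 6.34 with wt and 18.6 with dC, and a further peak 228 bp downstream of the start was called with dC alone (6.3). At Id2 the EBF1 summits lay 635 bp (wt, fold 8.36) and 634 bp (dC, 6.81) upstream of the start, outside the printed promoter. At Tcf3 the body peak of both forms lay 9883 bp (wt, 11.2) and 9826 bp (dC, 11.0) downstream of the start. At Tcf12 the site called in all 9 lists had 8.86 with wt and 15.3 with dC, 21339 bp upstream of the nearer start for wt. The only EBF1 site with both forms at Id1 lay in H13, 49.2 kb from the gene, with 9.41 and 19.2. It was just inside the window, and the nearest fetal liver Brg1 peaks just outside, at 50.7 to 51.0 kb, had folds of 15.3 to 20.1.

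More EBF1 peaks of these genes overlapped a Brg1 peak in each list with an EBF1 version than in the empty-vector list. The EBF1 peaks come from A-MuLV cells, and the empty-vector list is the shortest Brg1 list. Of the 12 EBF1 wt peaks, 3 overlapped a fetal liver Brg1 peak with the empty vector, 11 with wt, 9 with dC, 9 with dPLD and 11 with F-GATA3, beside 17.0%, 66.9%, 52.5%, 59.2% and 62.9% of the whole EBF1 wt list. In A-MuLV cells, 11 overlapped a Brg1 peak with wt and 8 with dC, beside 72.0% and 47.0%. Of the 21 EBF1 dC peaks, 4 overlapped a fetal liver Brg1 peak with the empty vector, 16 with wt, 14 with dC, 13 with dPLD and 14 with F-GATA3, beside 19.2%, 58.4%, 53.1%, 55.7% and 52.7% of the EBF1 dC list. In A-MuLV cells these were 14 with wt and 12 with dC, beside 50.1% and 46.1%. All 3 sites with a Brg1 peak in empty-vector cells among those bound with both forms were at Tcf12 and Id3. Over the merged sites, the 13 at E-protein genes had Brg1 at 10 with wt, 7 with dC, 6 with dPLD and 10 with F-GATA3. The 10 at Id genes had it at 8, 8, 8 and 6. In A-MuLV wt cells, Brg1 was called at 10 of the 10 EBF1 sites of both forms and at 4 of the 11 of dC alone, and in A-MuLV dC cells at 7 and 5. The difference between these classes of sites was not tested.

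Genes that work with E proteins and Id proteins were examined in 3 lists with the same window. Of 12 genes known as E-protein targets in B cells, all 12 had a gained fetal liver peak, beside 67.5% of all genes, and all 12 had more peaks with wt than with the empty vector, beside 56.5%. Pax5, the commitment factor of the B lineage, went from 1 to 14, Foxo1, which encodes a transcription factor upstream of the recombinase genes, from 1 to 11, and Rag1, which encodes a recombinase subunit, from 1 to 9. The windows of Rag1 and Rag2 overlap, as do those of Igll1 and Vpreb1, so they share peaks. An A-MuLV EBF1 peak with wt lay at 11 of these 12 genes, all but Cxcr4, beside 37.3% of all genes. The compared cells differ by the EBF1 vector, and a part of E proteins in these gains was not tested. Of 11 partners and corepressors of E proteins, 8 had a gained peak, close to the share of all genes, among them Lmo2, which encodes a bridging protein of complexes with Tal1 (3 to 10 peaks), and Cbfa2t3, which encodes an ETO-family corepressor (4 to 10). Id4, Msc and Runx1t1 had no peak in any of the 9 lists. All 10 inducers of Id genes had a gained peak, among them Egr1, an immediate early factor upstream of Id3 (3 to 8), and Tgfbr2 (7 to 13), while Bmpr2 went from 4 to 3 and Smad5 stayed at 2.

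The median wt count was 11.0 for the 6 genes, 8.5 for the E-protein targets, 3.0 for the partners and 4.5 for the inducers, and 3.0 for all protein-coding genes. With the empty vector the medians were 3.0, 3.0, 2.0, 3.5 and 1.0. In A-MuLV cells, 8 of 12 targets had more Brg1 peaks with wt than with dC, among them Il7r (20 and 7) and Ebf1 (28 and 21), and 3 of 12 had fewer, beside 25.4% and 26.8% of all genes. Of the partners 1 of 11 had more with wt and 5 had fewer, and of the inducers 3 of 10 had more and 5 had fewer. A gained peak kept by F-GATA3 and by neither dC nor dPLD was found at 1 of 11 partners (Cbfa2t3), 3 of 12 targets (Cxcr4, Ebf1 and Pou2af1) and 1 of 10 inducers (Smad1), beside 7.48% of all genes.

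By the counts in all 9 lists, the protein-coding gene most like Id3 outside its window was Gtf3c5, with a Euclidean distance of log2(count + 1) of 0.50, followed by B4gat1 (0.52) and Herpud1 (0.54). The genes nearest to Tcf3 were Gcgr (0.61), Ppp1r27 (0.63) and P4hb (0.68), and those nearest to Tcf4 were Pecr (0.78), Car14 (0.84) and P4hb (0.85). For Tcf12 they were Rilpl2 (0.79), Tbc1d22a (0.88) and Ccm2 (0.88), for Id1 Lpin1 (0.68), Lgals3bp (0.70) and Dagla (0.72), and for Id2 Arpp19 (0.70), Nrg4 (0.87) and Ccdc183 (0.96). None of the 6 genes was among the 3 nearest to another. Overlap among the windows of the named neighbours was not excluded, so neighbours of 1 gene can share peaks.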

How the data were processed

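ChIP-seq peak lists of 9 libraries were used (7 of Brg1, 2 of EBF1). Signal tracks and the 5 inputs were not analysed here. Tools named in the submitters' processing notes are MACS2 2.1.2, Bowtie2 2.3.3.1, deepTools 3.3.1 and SAMtools 1.9, with the build GRCm38. Each deposited list gives, per peak, the authors' fold (a ratio of ChIP pileup to local background), their −log10 p and −log10 q, and a score of 10 times the −log10 q. The peak threshold, the treatment of duplicates and the input of each library were not given in the sources used here, and the depth is unknown.

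Peaks on scaffolds were left out. Lists were compared by an overlap of at least 1 bp. A wt peak of fetal liver counted as gained where no empty-vector peak touched it. Merged sites join overlapping peaks of lists of one kind and carry the highest fold of each list. Gene intervals are those of 21887 protein-coding genes of RefSeq, and Tcf3 was matched by symbol. Each named member was described at its highest peaks, its EBF1 sites and the sites called in some lists, with the 3 genes nearest in counts. The members, lists and sites were chosen with earlier results of these data known. A further B-lineage marker is not reported here. With 1 library per group, no test was made. Shares have Clopper-Pearson 95% intervals (scipy 1.17.1). The overlap code was tested on simulated intervals. The 6 alternatives tried were a minimum −log10 q of 20, lists of equal length, an overlap of 50%, summits within 200 bp, windows of 10 kb, and the nearest gene only.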

Additional observations from a re-analysis of the deposited data

Results flagged for a closer look

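At 3 genes the number of Brg1 peaks with dC stood above the wt count in one kind of cell and below it in the other. At Tcf4, A-MuLV cells had 5 more peaks with dC than with wt (15 and 10), while fetal liver cells had 12 with dC and 13 with wt. At Id2, A-MuLV cells also had 5 more with dC (6 and 1), and fetal liver cells had 4 with dC and 5 with wt. A-MuLV peaks are narrower, so that 1 fetal liver site can hold several of them. The fetal liver site in Kidins220 held 3 of the 6 Id2 peaks with dC. At Id1 the A-MuLV difference, dC minus wt, was -2 (1 and 3), and fetal liver cells had 6 with dC and 5 with wt. The Id1 difference vanished within 10 kb and with the nearest gene only (0 and 0 A-MuLV peaks), since its A-MuLV peaks lie at H13, Mcts2 and Bcl2l1. In fetal liver, Id2 had 2 and 2 with lists of equal length, and 3 with dC against 2 with wt at a −log10 q of at least 20. At that minimum, A-MuLV cells had 0 Brg1 peaks with dC and 0 with wt at both Tcf4 and Id2. Within 10 kb, the A-MuLV counts were 3 with dC and 1 with wt at Id2, and still 15 and 10 at Tcf4. Each count comes from 1 library, the fetal liver differences are of 1 peak, and none of the 3 differences between the kinds of cell was tested.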

How the results depend on the processing

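An overlap of 50%, summits within 200 bp and the nearest gene only moved none of the 12 shares by more than the main interval. With a −log10 q of at least 20, the share of wt peaks absent with the empty vector was 91.3% at E-protein genes and 90.0% at Id genes. There the empty-vector list kept 3 peaks at E-protein genes and 1 at Id genes, where the full list had 13 and 11. The matching share of all wt peaks is not given here. The same setting gave 100% kept by dPLD and 77.8% kept by F-GATA3 at Id genes, and 0.0% (0 of 3) at E-protein genes and 66.7% (2 of 3) at Id genes for A-MuLV wt peaks called with dC. With lists of equal length, 5 gained peaks were left at Id genes, of which dC kept 100%, dPLD 100% and F-GATA3 80.0%, so F-GATA3 stayed the lowest of the 3 there. With windows of 10 kb, 80.0% (4 of 5) of A-MuLV wt peaks at Id genes were called with dC. The cause of these moves was not tested. The moved shares rest on fewer peaks than the main ones, and gained peaks were defined anew under each setting. The 54 counts per gene and list moved by over 1.5 times in 41 cases at a −log10 q of at least 20, in 19 with equal lengths, in 28 with 10 kb and in 24 with the nearest gene only. No paired analysis was possible because each group has 1 library. The unknown depth limits every statement on a missing peak.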
